A study of Mus musculus with 12 samples.

Results

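The genes described here are 10 members of the glucocorticoid response, out of 54752 genes in the count table. They are Nr3c1, which encodes the glucocorticoid receptor, and 9 genes known to be induced by the receptor: Fkbp5, Cdkn1a, Plin4, Arrdc2, Map3k6, Tsc22d3, Sgk1, Zbtb16 and Klf15. The members were selected by their measured values as well as by their known role, because several stood high in the ranking of KD against DR and moved in opposite directions from AL. Their differences between diets are therefore given as a description, without a test. All 10 symbols matched 1 gene each, and all 10 passed the filter on low counts in every comparison.

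Poly(A) RNA was sequenced from the cerebellar cortex of 12 wild-type (WT) male mice, F1 hybrids of C57BL6J and FVB, aged 12 weeks. Of these, 4 had free access to food (ad libitum, AL), 4 were on dietary restriction (DR) and 4 on a ketogenic diet (KD). DR mice were given 1 reduced portion each day, just before the dark period in which mice are active. DR and AL mice were killed at different times early in that period, the DR mice without having been given that day's portion. The composition, the start and the feeding times of KD are not given in the sources used here, nor is the time of day at which KD mice were killed. Diet, feeding time and time since the last meal therefore cannot be told apart, nor, for KD, can time of day. No gene was deleted or introduced, and the sources used here do not tie any 2 libraries to 1 litter, cage or day. Replicate numbers name single mice and pair none of them.

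Glucocorticoids are steroid hormones of the adrenal cortex, mainly corticosterone in mice, that rise before the active part of the day and with stress or food shortage. Without hormone the receptor is held in the cytoplasm by Hsp90 and its co-chaperones, and with hormone it enters the nucleus, binds DNA and raises or lowers the transcription of its targets. Fkbp5, which encodes the co-chaperone FKBP51, is a target that lowers the receptor's affinity for hormone, and Nr3c1 itself is lowered by its ligand in many tissues. Several targets are also induced by other signals, such as Cdkn1a by p53. The files hold no measurement of corticosterone.

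The DNA element that the receptor prefers is a pair of inverted sites separated by 3 bases. Its relaxed form, GNACANNNTGTNC, was searched on both strands in the 250 bases before each gene start of the RefSeq promoter table (GRCm38.p6), in which 8 of the 10 members have an entry; Zbtb16 and Nr3c1 have none. It occurred in 127 of 32851 promoters (0.387%), or in 119 of 27025 genes (0.44%), and among the members in Sgk1 and Map3k6. Among the 34 other induced targets with a promoter in the table, which were listed beside the members, it occurred in Fam107a and Mt1. The stricter form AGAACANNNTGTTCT, which contains the relaxed one, occurred in 3 promoters (0.00913%) of 3 genes (0.0111%), of which 1 was Sgk1. The shorter core ACANNNTGT, contained in both, was in 1917 promoters (5.84%) of 1828 genes (6.76%), and among the members again in Sgk1 and Map3k6. The E-box CACGTG, which clock transcription factors bind, was in 1978 promoters (6.02%) of 1854 genes (6.86%), and among the members in Fkbp5, Sgk1 and Klf15. These 4 promoters are shown, 5′ to 3′ and ending at the base before the gene start, because they hold the relaxed element, which is in capitals.

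Sgk1 (chr10:21993640-21993889, plus strand): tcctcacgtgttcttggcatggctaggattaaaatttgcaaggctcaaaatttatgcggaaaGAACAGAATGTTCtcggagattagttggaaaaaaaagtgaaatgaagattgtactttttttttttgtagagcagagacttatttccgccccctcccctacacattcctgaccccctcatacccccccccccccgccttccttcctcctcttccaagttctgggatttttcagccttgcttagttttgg
Map3k6 (chr4:133240568-133240817, plus strand): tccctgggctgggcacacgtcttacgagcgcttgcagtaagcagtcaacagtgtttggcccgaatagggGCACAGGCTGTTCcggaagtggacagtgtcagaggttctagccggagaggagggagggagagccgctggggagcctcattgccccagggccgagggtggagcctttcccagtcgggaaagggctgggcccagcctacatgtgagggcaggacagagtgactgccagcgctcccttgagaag
Fam107a (chr14:8309780-8310029, minus strand): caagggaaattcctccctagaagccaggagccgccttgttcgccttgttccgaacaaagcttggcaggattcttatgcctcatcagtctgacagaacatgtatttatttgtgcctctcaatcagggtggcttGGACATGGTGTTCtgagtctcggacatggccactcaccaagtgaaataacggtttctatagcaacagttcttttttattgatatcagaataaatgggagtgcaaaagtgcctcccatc
Mt1 (chr8:94178839-94179088, plus strand): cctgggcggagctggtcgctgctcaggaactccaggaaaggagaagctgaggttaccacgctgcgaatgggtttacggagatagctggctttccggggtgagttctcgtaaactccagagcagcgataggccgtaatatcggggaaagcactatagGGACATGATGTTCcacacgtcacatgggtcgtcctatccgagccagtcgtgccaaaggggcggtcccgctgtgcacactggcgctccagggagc

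The element lay 188 to 176 bases before the start in Sgk1, 181 to 169 in Map3k6, 118 to 106 in Fam107a and 94 to 82 in Mt1. Sgk1 has 6 starts in the table, and the promoter shown belongs to the only one of them with a match. A match is a description of the letters and no evidence of binding, and the other 6 members with an entry had no match in these short windows.

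Totals of 31712084 to 40798644 counts per library (median 36674269) lay behind these values. KD libraries held 35376210 to 38961800 counts, DR libraries 31749160 to 38430082 and AL libraries 31712084 to 40798644. Single members held between 134 counts (Map3k6 on KD) and 6686 counts (Tsc22d3 on AL) in a library. Levels are given as CPM, counts relative to the library total after TMM, a scaling that assumes that most genes do not differ. The dissected cortex expressed its defining markers: the 10 granule cell markers summed to between 7566.8 and 8118.9 CPM and the 10 Purkinje cell markers to between 7535.4 and 9475.5 CPM over the 12 libraries.

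On KD, 9 of the 10 members were lower than on DR and the receptor gene was higher. On DR, 8 of the 10 were higher than on AL, and on KD 9 of the 10 were lower than on AL. The median log2 fold change of the 10 was -1.07 for KD against DR, 0.41 for DR against AL and -0.48 for KD against AL, where the medians over all genes tested were -0.0024, 0.0036 and 0.00021. These medians follow from the choice of members. KD against AL and DR against AL share the AL mice, and KD against DR shares its mice with both, so that the 3 comparisons are not independent.

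**Figure D1:**
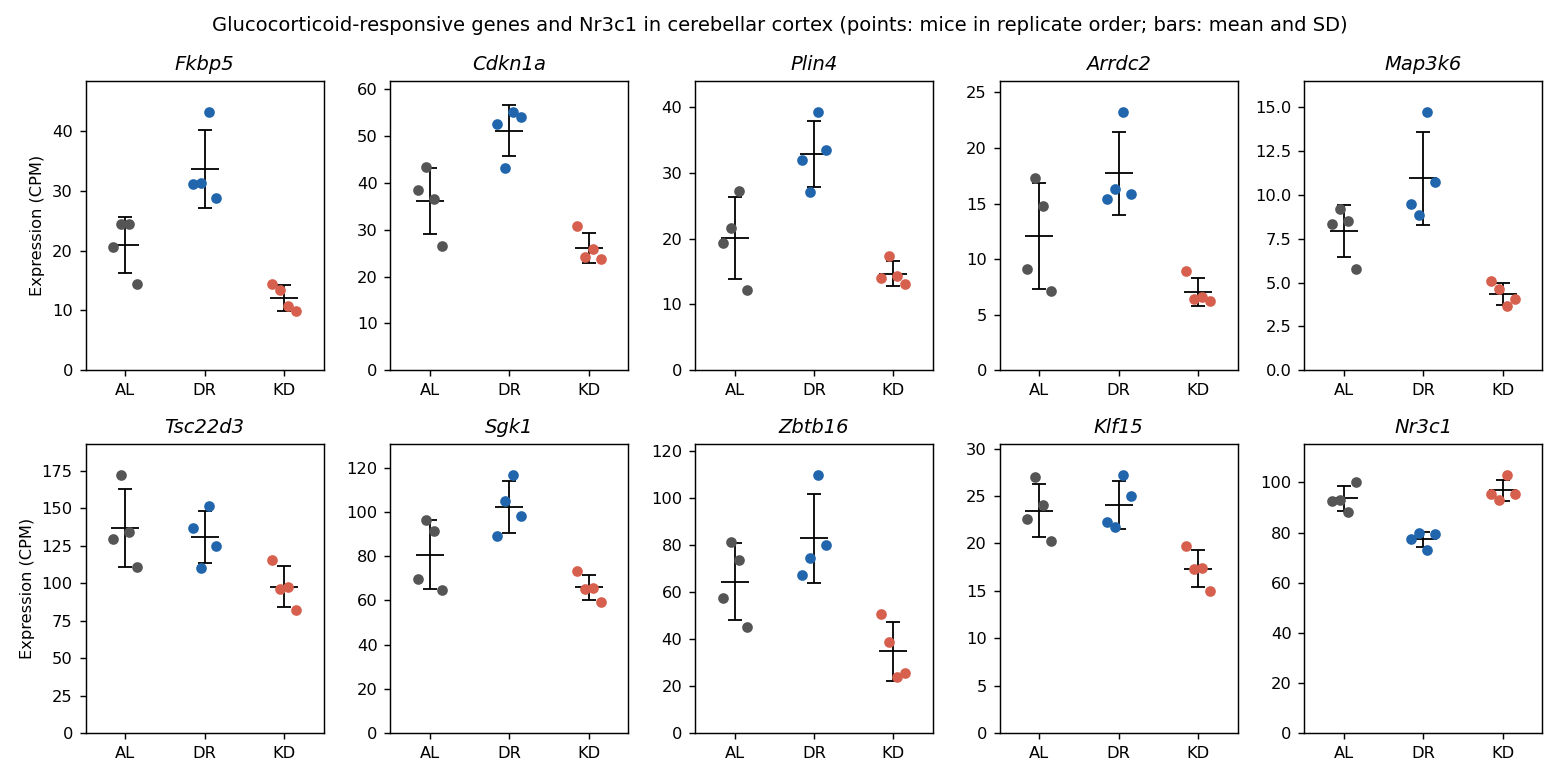
Expression of the 10 genes in CPM (y axis, from 0) in the 4 mice of each diet (x axis); each point is a mouse, in replicate order, and bars show the mean and SD. Fkbp5 ran from 9.86 to 14.4 CPM on KD and from 28.9 to 43.2 CPM on DR, while Nr3c1 was lowest on DR, at 73.1 to 79.7 CPM.

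Nr3c1 (ENSMUSG00000024431.14) lies on the minus strand of chromosome 18, 39410545 to 39491301 in GRCm38.p6. It was at 92.7, 93.1, 88.2 and 100.2 CPM in the 4 AL mice, at 77.3, 79.7, 73.1 and 79.3 CPM in the DR mice, and at 95.5, 93.0, 103 and 95.5 CPM in the KD mice. All DR mice lay below all mice of the other diets, while AL and KD overlapped. The means were 93.6 ± 4.96 CPM on AL, 77.4 ± 3.01 CPM on DR and 96.8 ± 4.35 CPM on KD (SD, n = 4 each). The log2 fold change was 0.32 (SE 0.046) for KD against DR, -0.27 (SE 0.049) for DR against AL and 0.050 (SE 0.045) for KD against AL. Nr3c1 thus varied little between mice of 1 diet, with a coefficient of variation of 5.30% on AL, against 12.1% to 39.3% for the 9 targets.

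Fkbp5 (ENSMUSG00000024222.17; minus strand of chromosome 17, 28399094 to 28517527) showed the widest difference among the members between KD and DR. Its level was 20.6, 24.5, 24.4 and 14.5 CPM on AL, 31.2, 31.4, 43.2 and 28.9 CPM on DR, and 14.4, 13.4, 10.7 and 9.86 CPM on KD. The 3 diets did not overlap, although AL replicate 4, at 14.5 CPM, stood next to KD replicate 1, at 14.4 CPM. The mean was 21.0 ± 4.72 CPM on AL, 33.7 ± 6.46 CPM on DR and 12.1 ± 2.18 CPM on KD (SD, n = 4 each). The mean on KD was thus 0.359 of that on DR, a log2 fold change of -1.48 (SE 0.13), and it was 0.575 of that on AL, a log2 fold change of -0.80 (SE 0.15). DR stood 1.6-fold above AL (log2 fold change 0.68, SE 0.15).

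Cdkn1a (ENSMUSG00000023067.14; plus strand of chromosome 17, 29090976 to 29100727) encodes p21, an inhibitor of cyclin-dependent kinases. It was at 38.4, 43.3, 36.5 and 26.5 CPM on AL, at 52.5, 43.1, 55.1 and 54.0 CPM on DR, and at 30.8, 24.2, 25.8 and 23.8 CPM on KD. KD and DR did not overlap, but DR replicate 2 lay just under AL replicate 2, and AL replicate 4 lay among the KD mice. Its log2 fold change was -0.97 (SE 0.085) for KD against DR, 0.50 (SE 0.11) for DR against AL and -0.47 (SE 0.12) for KD against AL. Of its exonic bases, 7.68% overlap a gene on the opposite strand, and the library kit did not keep strand.

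Plin4 (ENSMUSG00000002831.13; minus strand of chromosome 17, 56100591 to 56109803) encodes perilipin 4, a protein of the surface of lipid droplets. Its levels were 19.3, 21.7, 27.2 and 12.2 CPM on AL, 31.9, 27.1, 39.3 and 33.5 CPM on DR, and 14, 17.4, 14.3 and 13.1 CPM on KD. All KD mice lay below all DR mice, and AL replicate 4 was below every KD mouse. The log2 fold change was -1.17 (SE 0.10) for KD against DR, 0.71 (SE 0.17) for DR against AL and -0.46 (SE 0.17) for KD against AL. Plin4 had the largest log2 fold change of the 10 members in DR against AL.

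Arrdc2 (ENSMUSG00000002910.11; minus strand of chromosome 8, 70835129 to 70839720) belongs to the alpha-arrestins, adaptor proteins in the trafficking of membrane proteins. It was at 9.09, 17.3, 14.8 and 7.16 CPM on AL, at 15.4, 16.3, 23.2 and 15.9 CPM on DR, and at 8.94, 6.37, 6.59 and 6.23 CPM on KD. The AL mice spread over the ranges of both other diets, with a coefficient of variation of 39.3%, the highest of any member in any diet. The log2 fold change was -1.33 (SE 0.14) for KD against DR, 0.55 (SE 0.21) for DR against AL and -0.78 (SE 0.22) for KD against AL.

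Map3k6 (ENSMUSG00000028862.6; plus strand of chromosome 4, 133240818 to 133252929), whose promoter is shown above, encodes a kinase at the head of a stress-activated MAP kinase cascade. It stood at 8.33, 9.19, 8.52 and 5.8 CPM on AL, at 9.50, 8.83, 14.7 and 10.7 CPM on DR, and at 5.09, 4.62, 3.67 and 4.04 CPM on KD. All KD mice were below all AL and all DR mice, while AL and DR overlapped. Its log2 fold change was -1.33 (SE 0.15) for KD against DR, 0.45 (SE 0.16) for DR against AL and -0.87 (SE 0.14) for KD against AL.

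Zbtb16 (ENSMUSG00000066687.5; minus strand of chromosome 9, 48654297 to 48836222) encodes the zinc finger transcription factor PLZF. It was at 57.5, 81.4, 73.5 and 44.9 CPM on AL, at 67.0, 74.2, 109.8 and 79.9 CPM on DR, and at 50.6, 38.5, 23.9 and 25.7 CPM on KD. KD mice ran from 23.9 to 50.6 CPM and lay below all DR mice, and KD replicate 1 was above AL replicate 4. The log2 fold change was -1.26 (SE 0.19) for KD against DR, 0.36 (SE 0.16) for DR against AL and -0.89 (SE 0.21) for KD against AL, the largest of the 10 against AL.

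Sgk1 (ENSMUSG00000019970.15; plus strand of chromosome 10, 21882184 to 21999903), whose promoter is shown above, encodes a kinase that controls ion channels and transporters. Its level was 69.8, 96.5, 91.6 and 64.8 CPM on AL, 89.0, 105, 117 and 98.1 CPM on DR, and 73.5, 65.0, 65.7 and 59.4 CPM on KD. DR and KD did not overlap, and AL replicates 1 and 4 were within the range of KD. The log2 fold change was -0.63 (SE 0.075) for KD against DR, 0.34 (SE 0.11) for DR against AL and -0.29 (SE 0.11) for KD against AL.

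Tsc22d3 and Klf15 differed from the other targets in that DR and AL were close. Tsc22d3 (ENSMUSG00000031431.13; minus strand of chromosome X, 140539528 to 140600659) encodes GILZ, a leucine zipper protein through which glucocorticoids restrain inflammation. It was at 129.5, 173, 134 and 111 CPM on AL, at 137, 110.5, 152 and 125 CPM on DR, and at 115, 96.3, 97.4 and 82.4 CPM on KD, and all 3 diets overlapped. Klf15 (ENSMUSG00000030087.11; plus strand of chromosome 6, 90462576 to 90475238) encodes a transcription factor of amino acid and lipid metabolism. It was at 22.6, 27.0, 24 and 20.2 CPM on AL, at 22.2, 21.7, 27.2 and 25.0 CPM on DR, and at 19.7, 17.2, 17.4 and 15 CPM on KD, with KD below every mouse of the other diets. For DR against AL the log2 fold change was -0.064 (SE 0.11) for Tsc22d3 and 0.036 (SE 0.090) for Klf15, both smaller than the standard error, and each changed sign in 2 of 14 alternative fits. For KD against AL it was -0.48 (SE 0.11) and -0.44 (SE 0.091), and for KD against DR -0.42 (SE 0.093) and -0.47 (SE 0.087). On the log2 CPM scale, the AL mean of Klf15 lay at 91.7% of the way from the KD mean to the DR mean and that of Tsc22d3 at 113%, compared with 34.7% for Plin4, 43.6% for Sgk1, 46.7% for Cdkn1a, 52.9% for Fkbp5, 53.4% for Arrdc2, 65.5% for Map3k6 and 71.1% for Zbtb16.

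**Figure D2:**
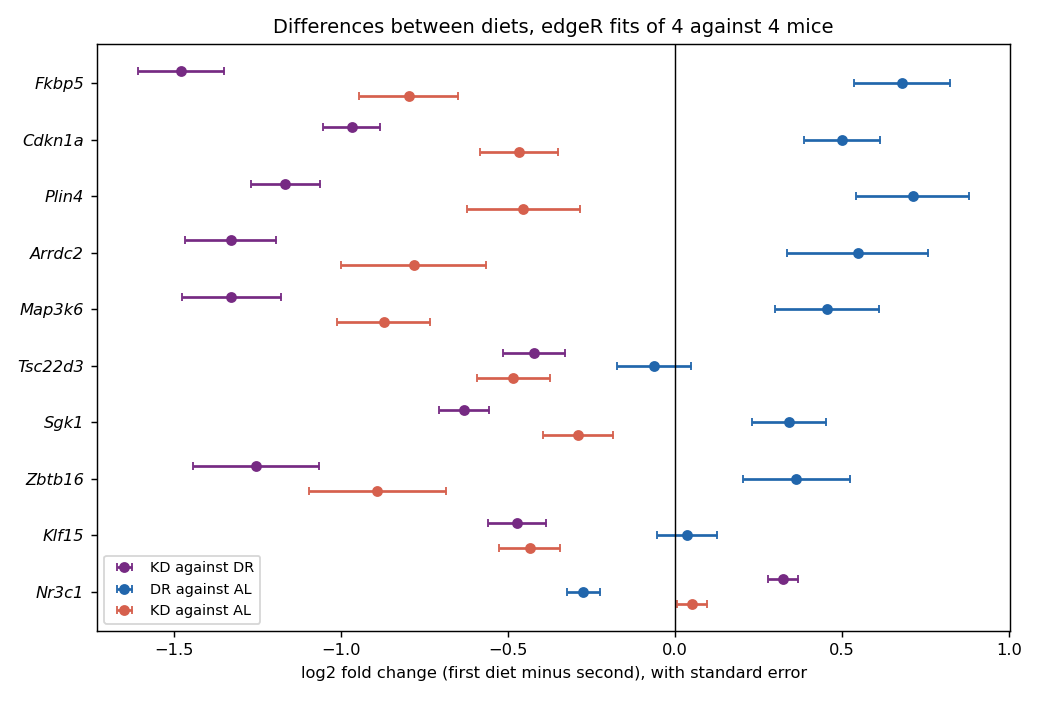
Log2 fold change of each gene (x axis, first diet minus second) in 3 comparisons of 4 against 4 mice; points are edgeR estimates and bars their standard errors. Fkbp5 spans -1.48 for KD against DR to 0.68 for DR against AL, and for Klf15 and Tsc22d3 the DR against AL points lie beside 0.

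By the quasi-likelihood test of edgeR, with p-values adjusted over all genes after Benjamini and Hochberg and a threshold of 0.05, 942 of 19087 genes (4.94%) differed between KD and DR, of which 463 (2.43%) were higher and 479 (2.51%) lower on KD. Of the members, 9 were called lower and Nr3c1 was called higher. KD and DR mice did not overlap for 2256 genes (11.8%; 1150, 6.03%, higher and 1106, 5.79%, lower on KD), and among the members for all but Tsc22d3. At an unadjusted p under 0.05 stood 3565 genes (18.7%). With library sizes alone in place of TMM, 37.9% of the called genes were higher on KD, against 49.2% with TMM. The rule used this comparison, and nothing is read from the members' counts. Between DR and AL, 583 of 19052 genes (3.06%) differed, 252 (1.32%) higher and 331 (1.74%) lower on DR, and 3429 (18%) stood at an unadjusted p under 0.05. The members called were Fkbp5, Cdkn1a and Plin4, higher on DR, and Nr3c1, lower on DR. DR and AL did not overlap for 2085 genes (10.9%; 1010, 5.3%, higher and 1075, 5.64%, lower on DR), which included Fkbp5 and Nr3c1 but no other member. With library sizes alone, 57% of the called genes were higher on DR, against 43.2% with TMM. Of the 8 fits that left out 1 mouse, Nr3c1 was called in 8, Fkbp5 in 6, Cdkn1a in 4 and Plin4 in 2, and without AL replicate 1 or DR replicate 3 only Nr3c1 was called. For KD against DR, Tsc22d3 was not called without DR replicate 3 or KD replicate 3, and the other 9 were called in all 8 fits.

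Between KD and AL, edgeR's quasi-likelihood test called 0 of 19036 genes (0%; 0 higher and 0 lower), where 928 (4.87%) had an unadjusted p under 0.05, DESeq2 called 10 genes and edgeR's exact test 18. No member was called. The moves from AL also entered the choice of members, so nothing is read from their calls or overlaps in either comparison with AL. KD and AL did not overlap for 563 genes (2.96%; 268, 1.41%, higher and 295, 1.55%, lower on KD), and among the members for Fkbp5, Map3k6 and Klf15, all lower on KD. Without AL replicate 4, 5 genes were called, of which 3 were the members Map3k6 (log2 fold change -0.99), Fkbp5 (-0.94) and Cdkn1a (-0.59), while leaving out any other mouse called 0 to 6 genes and no member. AL replicate 4 was the lowest AL mouse for all 9 targets, so leaving it out widened their difference from KD.

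Levels of different genes were compared only per kilobase of exon (RPKM), on AL. Tsc22d3 was the most abundant member, at 31.5 ± 5.94 RPKM (SD, n = 4), and did not overlap with Sgk1, the next, at 16.5 ± 3.21 RPKM. Nr3c1 (12.6 ± 0.668 RPKM), Zbtb16 (12.2 ± 3.08 RPKM), Cdkn1a (10.2 ± 1.99 RPKM) and Klf15 (8.40 ± 1.01 RPKM) followed, and from Sgk1 to Klf15 each gene overlapped with its neighbour in this order. The lower group was Arrdc2 (3.74 ± 1.47 RPKM), Plin4 (3.48 ± 1.08 RPKM), Fkbp5 (2.22 ± 0.498 RPKM) and Map3k6 (1.73 ± 0.323 RPKM), again with overlap between neighbours, and Klf15 did not overlap with Arrdc2.

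Mice of 1 diet also differed from each other, and the targets varied together. AL replicate 4 was the lowest AL mouse for all 9 targets and AL replicate 2 the highest for 8. DR replicate 3 was the highest DR mouse for all 9, KD replicate 1 the highest KD mouse for 8, and KD replicate 4 the lowest for 7. The mean z score of the 9 targets over the 12 mice ran from -0.72 to 0.80 on AL, from 0.55 to 1.48 on DR and from -1.47 to -0.52 on KD. AL thus overlapped with both other diets in this mean, whose lowest AL value was that of AL replicate 4, and DR and KD did not overlap.

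**Figure D3:**
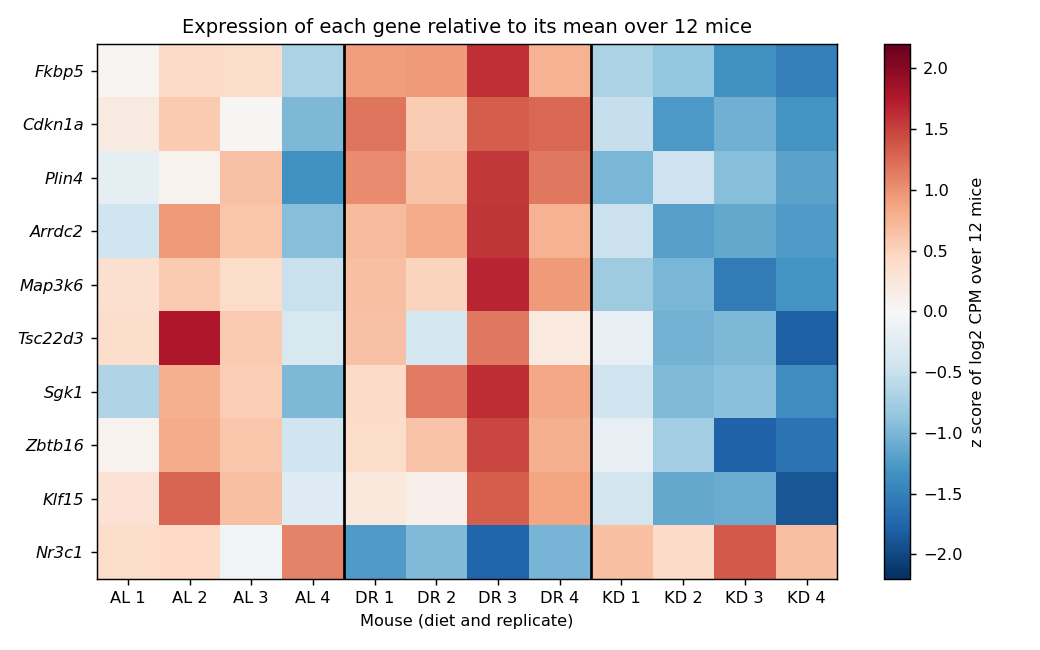
Z score of log2 CPM of each gene (rows) in each mouse (columns, by diet and replicate), relative to the gene's mean over 12 mice; red is above and blue below the mean. AL replicate 4 is blue for all 9 targets and red for Nr3c1, and DR replicate 3 is the darkest red of the DR mice for each target and the darkest blue for Nr3c1.

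This covariation was described after each gene's diet mean had been subtracted from its log2 CPM, which removes the differences that chose the members. All 36 pairs of the 9 targets then had a Pearson r above 0 over the 12 mice, with a median of 0.80 (0.587 to 0.958). The highest was that of Arrdc2 with Sgk1 and the lowest that of Plin4 with Tsc22d3. For comparison, Fkbp5 had a median r of -0.0056 with 15467 other genes of at least 1 CPM, 49.4% of them above 0, and 236 (1.53%) reached 0.72, the lowest r of Fkbp5 with a target. Nr3c1 went the other way, with r below 0 for 9 of 9 targets (median -0.60, -0.808 to -0.444). An r with Nr3c1 of -0.444 or lower was found for 2000 (12.9%) of those genes. Without AL replicate 4, the median was 0.71 (0.174 to 0.94) over the 36 target pairs, all above 0, and -0.37 (-0.705 to -0.0793) for Nr3c1 with the targets. The points share libraries and depth, and no test was made. The paper dissected AL and DR mice at different times within a window early in the dark period. Over that window it shows core clock genes rising or falling. The part of dissection time in this covariation was not tested.

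**Figure D4:**
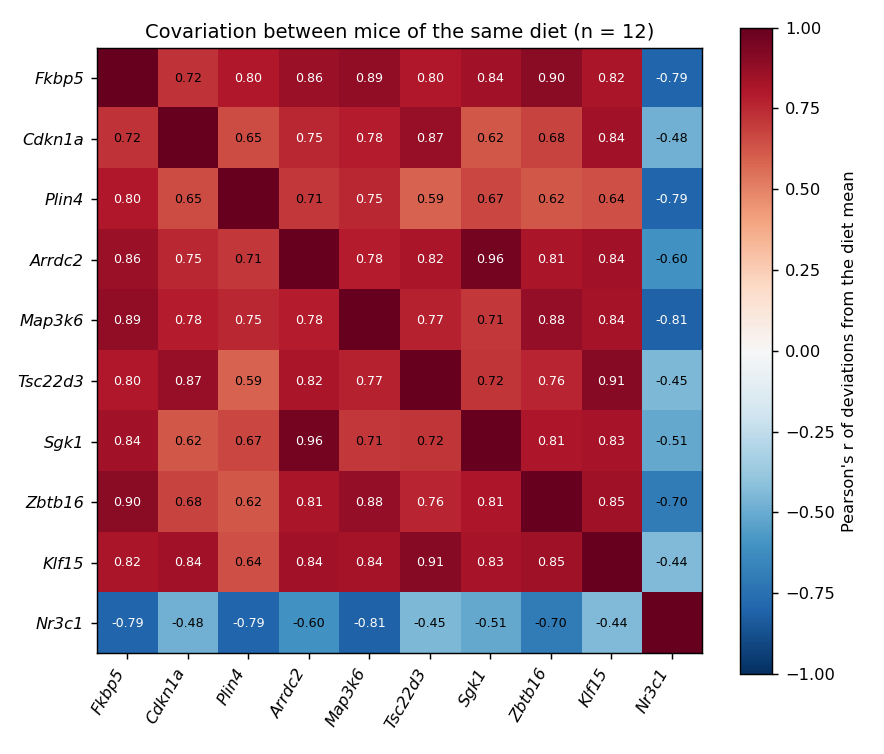
Pearson's r between the 10 genes (rows and columns) over 12 mice, after subtraction of each diet's mean from log2 CPM; the colour scale runs from -1 (blue) to 1 (red). The 9 targets form a block of positive values with a median of 0.80, and the row of Nr3c1 is negative throughout.

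Over all 12 mice, diet differences included, the genes most like Fkbp5 by Pearson's r of log2 CPM among 15467 candidates were Pmaip1 (0.97), Zhx3 (0.96), Chd9 (0.95), Tmco6 (0.95) and Arl4d (0.94). Pmaip1, which encodes the pro-apoptotic protein NOXA, was at 3.71 to 6.09 CPM on AL, 5.72 to 8.69 CPM on DR and 2.73 to 3.23 CPM on KD. Most like the mean z score of the 9 targets were Pmaip1 (0.96), Hif3a (0.96), Txnip (0.95), Gm27252 (0.95) and Paqr8 (0.95). Txnip, which encodes an inhibitor of thioredoxin and of glucose uptake, was at 9.82 to 25.5 CPM on AL, 20.9 to 34.5 CPM on DR and 8.73 to 14.7 CPM on KD. Among the members themselves, r with Fkbp5 ran from 0.78 for Tsc22d3 to 0.97 for Map3k6, and was -0.90 for Nr3c1. These values of the members include the diet differences by which they were chosen, so nothing is read from them. With Spearman's rho in place of r, 2 of the 5 genes most like Fkbp5 and 1 of the 5 most like the mean remained, so the exact order is loose at n = 12.

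Other glucocorticoid-induced targets were lower on KD than on DR in the same direction as the members. Of 41 listed targets that are no members, 39 passed the filter. Of these, 22 (56.4%) fell from DR to KD while 0 rose, and the other 17 did not pass the test. Over all genes, 2.51% were called lower on KD. The median log2 fold change of the 39 targets was -0.29, with 32 of 39 below 0. The list was compiled with earlier results of these data known and is no independent evidence of the direction. Cebpb and Lcn2 did not pass the filter, with at most 0.335 and 0.39 CPM. Between DR and AL, 8 (20.5%) rose on DR and 0 fell, with a median of 0.17. Over all genes, 1.32% were called higher on DR. Between KD and AL none was called, with 33 of 39 below 0 and a median of -0.10.

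**Figure D5:**
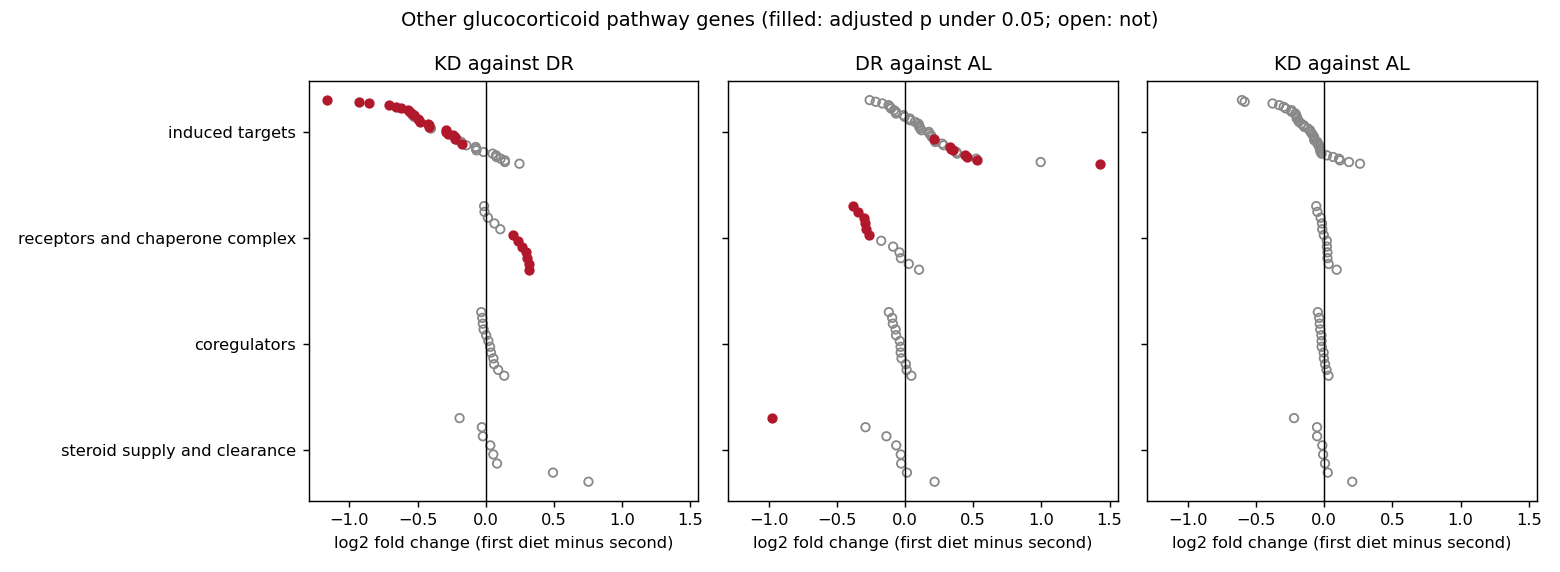
Log2 fold changes (x axis) of the other genes of the pathway in 4 lists (y axis), 1 panel for each comparison; filled points have an adjusted p under 0.05 and open points do not. Of the induced targets, 22 are filled and below 0 for KD against DR, 8 are filled and above 0 for DR against AL, and no point is filled for KD against AL.

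Angptl4, which encodes an inhibitor of lipoprotein lipase and is also induced by PPAR receptors, had the largest change of the list. It was at 1.65, 2.71, 2.78 and 1.68 CPM in the AL mice, at 5.64, 5.52, 6.50 and 6.13 CPM in the DR mice and at 2.23, 2.88, 3.20 and 2.29 CPM in the KD mice. DR mice lay above all others, while AL and KD overlapped. Angptl4 rose on DR against AL by 1.43 on the log2 scale (SE 0.16, edgeR adjusted p = 0.000506) and fell by 1.17 from DR to KD (SE 0.13, edgeR adjusted p = 0.000135). Bcl6, a transcriptional repressor, was at 116, 157, 143 and 124 CPM on AL, 159.7, 167, 217 and 196 CPM on DR, and 128, 121, 123 and 108 CPM on KD. It rose on DR (log2 fold change 0.45, edgeR adjusted p = 0.0234) and fell from DR to KD (-0.62, edgeR adjusted p = 0.000405).

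Fam107a, a regulator of the actin cytoskeleton whose promoter is shown above, was at 735 ± 104 CPM on AL, 1057 ± 94.7 CPM on DR and 791 ± 86.2 CPM on KD (SD, n = 4 each). It rose on DR by 0.52 (edgeR adjusted p = 0.00573) and fell from DR to KD by 0.42 (edgeR adjusted p = 0.00342), where DR replicate 2 and KD replicate 4 overlapped at 919 and 921 CPM. Mt1, which encodes a metal-binding metallothionein and whose promoter is also shown, was at 267 ± 31.2 CPM on AL, 336 ± 31.4 CPM on DR and 241 ± 13.3 CPM on KD (SD, n = 4 each). It rose on DR by 0.33 (edgeR adjusted p = 0.0321) and fell from DR to KD by 0.48 (edgeR adjusted p = 0.000358). Errfi1, an inhibitor of the EGF receptor, Sult1a1, a sulfotransferase, and Usp54, of the ubiquitin-specific peptidase family, showed the same pair of calls. Their log2 fold changes on DR against AL were 0.35, 0.33 and 0.22 (edgeR adjusted p = 0.023, 0.031 and 0.041), and from DR to KD -0.56, -0.53 and -0.29 (edgeR adjusted p = 0.000196, 0.000411 and 0.00217). Acer2, a ceramidase, rose on DR (0.44, edgeR adjusted p = 0.0451), and its log2 fold change for KD against DR, -0.49, was as large but missed the threshold (edgeR adjusted p = 0.0559). Of the 8 genes that rose on DR, Angptl4 and Fam107a were called in all 8 fits that left out 1 mouse, and the other 6 in 2 to 5 of them.

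The other 15 genes called lower on KD than on DR were not called between DR and AL. Hif3a, a hypoxia-inducible factor subunit, was at 27.3, 34.6, 38.3 and 21.2 CPM on AL, 34.6, 35.0, 40.9 and 36.3 CPM on DR and 28.0, 18.9, 19.2 and 15 CPM on KD, and fell by 0.86 from DR to KD (edgeR adjusted p = 0.0012). Genes of energy metabolism were Pdk4, a kinase that inhibits pyruvate dehydrogenase (-0.57, edgeR adjusted p = 0.00802), Pnpla2, the adipose triglyceride lipase (-0.50, edgeR adjusted p = 0.000611), Gpd1, glycerol-3-phosphate dehydrogenase (-0.24, edgeR adjusted p = 0.014), and Irs2, an insulin receptor substrate (-0.28, edgeR adjusted p = 0.00445). Genes of stress and inflammatory signalling were Ddit4, an inhibitor of mTOR signalling (-0.42, edgeR adjusted p = 0.0016), Nfkbia, the inhibitor of NF-kappaB (-0.42, edgeR adjusted p = 0.0091), Sesn1, a sestrin (-0.17, edgeR adjusted p = 0.0292), and Cebpd, a transcription factor (-0.93, edgeR adjusted p = 0.0219). Genes with high levels in astrocytes were Glul, glutamine synthetase (-0.23, edgeR adjusted p = 0.0141), Gjb6, connexin 30 (-0.30, edgeR adjusted p = 0.0124), and Mertk, a receptor tyrosine kinase of phagocytosis (-0.54, edgeR adjusted p = 0.00685). The remaining ones were Rasd1, a Ras-like GTPase (-0.71, edgeR adjusted p = 0.018), Sdc4, a syndecan (-0.23, edgeR adjusted p = 0.0279), and Mt2, a metallothionein (-0.66, edgeR adjusted p = 0.0467). Mt2 is uncertain because 73.5% of its exonic bases overlap a gene on the opposite strand, and the same holds to a lesser degree for Cebpd (15%) and Gpd1 (13%). When 1 mouse was left out, Mt2 was called in 1 of 8 fits, Sdc4 and Sesn1 in 2, Cebpd in 4, Rasd1 in 5, Gpd1 in 6 and Glul and Gjb6 in 7, and the other targets called lower on KD than on DR in all 8.

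Some known targets were not called. Per1, a clock gene that glucocorticoids also induce, was at 202, 235, 190.3 and 197 CPM on AL, 146, 188, 186 and 169 CPM on DR and 189, 199, 216 and 138 CPM on KD. Its log2 fold change was 0.11 for KD against DR (edgeR adjusted p = 0.639) and -0.26 for DR against AL (edgeR adjusted p = 0.0922), where all DR mice were below all AL mice. Klf9 and Dusp1, a transcription factor and a phosphatase of MAP kinases, had log2 fold changes of -0.14 and 0.074 for KD against DR (edgeR adjusted p = 0.0891 and 0.828); both were picked after their values were seen. Of the core clock genes, 1 of 6 was called, between DR and AL only, where 1.74% of all genes were called lower on DR. This gene was Per2, which fell on DR by 0.38 (edgeR adjusted p = 0.0406). Its log2 fold change for KD against DR was 0.31 (edgeR adjusted p = 0.0584). The paper, in its own edgeR analysis of AL and DR, reports Nr1d1, Per1 and Per2 as lower on DR. Alternative fits were not run for clock genes here, so whether their calls depend on the test was not tested. For Nr1d1 and Dbp, which swing strongly over the day, the log2 fold change was -0.45 and -0.61 for DR against AL (edgeR adjusted p = 0.108 and 0.133), and 0.11 and 0.26 for KD against DR (edgeR adjusted p = 0.73 and 0.543). For Arntl and Ciart, it was -0.015 and -0.0026 for KD against DR (edgeR adjusted p = 0.943 and 0.998). Within diets, r with Fkbp5 was 0.40 for Per1, 0.10 for Per2, 0.53 for Nr1d1, 0.47 for Dbp, -0.55 for Arntl and 0.55 for Ciart (n = 12 mice, no test). With the mean z score of the 9 targets, it was 0.41, 0.059, 0.38, 0.30, -0.42 and 0.46 in the same order. Of the chaperone genes, Hsp90aa1, Fkbp4 and Hsp90ab1 had an r within diets of -0.79, -0.71 and -0.59 with Fkbp5. With the mean of the targets, their r was -0.64, -0.55 and -0.44. For Cirbp, which the paper describes as induced by hypothermia and higher on DR, r was 0.665 with Fkbp5 and 0.562 with that mean. The part of the clock, of the chaperones and of Cirbp in the differences was not tested.

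Several chaperones that hold the receptor moved in the direction of Nr3c1, and others of the list were not called. The paper reports heat shock proteins and ER chaperones that were lower on DR and correlated negatively with Cirbp, which was higher on DR. It proposes that this may follow from a change in body temperature under DR, which was not tested here. Of the 12 other genes of the list of receptors and chaperones, 7 (58.3%) rose from DR to KD and 0 fell. Over all genes, 2.43% were called higher on KD. Between DR and AL, 6 (50%) fell on DR and 0 rose, beside 1.74% of all genes called lower on DR. Most of these calls between DR and AL depended on single mice, as given below. None was called between KD and AL. The medians were 0.22, -0.22 and 0.0083. Hsp90ab1, the constitutive cytosolic HSP90, was at 1724, 1581, 1402 and 1778 CPM on AL, 1206, 1164, 1244 and 1370.0 CPM on DR and 1495, 1501, 1691 and 1534 CPM on KD. It fell on DR by 0.38 (edgeR adjusted p = 0.0111) and rose from DR to KD by 0.32 (edgeR adjusted p = 0.00341), and DR mice did not overlap with either diet. The inducible Hsp90aa1, the heat shock cognate Hspa8, its partner Dnaja1, the adaptor Stip1 and the co-chaperone Fkbp4 fell on DR by 0.26 to 0.34 (edgeR adjusted p from 0.0263 to 0.0427) and rose from DR to KD by 0.24 to 0.31 (edgeR adjusted p from 0.0026 to 0.00731). Fkbp4, which encodes FKBP52 and competes with FKBP51 for the receptor complex, was at 213 ± 17 CPM on AL, 178 ± 9.48 CPM on DR and 218 ± 11 CPM on KD (SD, n = 4 each), lowest on the diet on which Fkbp5 was highest, while AL and KD overlapped. Ptges3, the co-chaperone p23, rose from DR to KD by 0.20 (edgeR adjusted p = 0.0393).

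Bag1, Cdc37, Hspa4 and Ppid, also parts of the chaperone cycle, were not called in any comparison, with log2 fold changes of 0.063, -0.010, 0.11 and 0.015 for KD against DR (edgeR adjusted p = 0.594, 0.937, 0.206 and 0.913). Nr3c2, the mineralocorticoid receptor, which binds the same hormone, was at 23.6 ± 0.793 CPM on AL, 25.3 ± 0.399 CPM on DR and 25.1 ± 1.99 CPM on KD (SD, n = 4 each), and was not called either (edgeR adjusted p = 0.945 for KD against DR and 0.341 for DR against AL). Only Hsp90ab1 was called for DR against AL in all 8 fits that left out 1 mouse, and the other 5 chaperones in 1 or 2 of them; for KD against DR the 6 were called in all 8, and Ptges3 in 3. Of the exonic bases of Dnaja1, 10.8% overlap another gene. This list, too, was compiled with earlier results of these data known.

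Genes that supply or clear the steroid in the tissue were mostly not called. Hsd11b1, which regenerates corticosterone within cells, was at 44.2 ± 2.18 CPM on AL, 44.7 ± 1.48 CPM on DR and 43.8 ± 1.66 CPM on KD (SD, n = 4 each), with log2 fold changes of 0.014 for DR against AL and -0.030 for KD against DR (edgeR adjusted p = 0.923 and 0.8). H6pd, which supplies its cofactor, Abcb1a and Abcb1b, the P-glycoproteins that export steroids, Star and Cyp11a1, of steroid synthesis, and Srd5a1, a steroid reductase, were not called in any comparison (edgeR adjusted p from 0.197 to 0.998). Akr1c14, a hydroxysteroid dehydrogenase, fell on DR by 0.97 (edgeR adjusted p = 0.0254), at 1.23, 1.81, 1.95 and 1.81 CPM on AL against 0.87, 1.0, 0.98 and 0.60 CPM on DR. It was called in 3 of the 8 fits that left out 1 mouse. Cyp11b1 and Hsd11b2 did not pass the filter. None of the 12 coregulators of the receptor, such as Ncoa1, Ncor1 and Crebbp, was called in any comparison, and their log2 fold changes ran from -0.034 to 0.13 for KD against DR.

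Markers of the cell types of the dissected tissue are given beside these results. Over all genes, 2.43% were called higher and 2.51% lower on KD than on DR. Between KD and DR, 3 of 10 markers of astrocytes and Bergmann glia were called higher on KD (Aqp4, Fabp7 and Hopx) and 1 lower (Gjb6, also a target). Of endothelium, 1 of 10 was higher (Kdr), and of granule cells 1 of 10 each way (Fat2 higher, Cbln3 lower). Of choroid plexus, 2 of 6 tested were higher (Ttr and Enpp2). Called were 0 of 10 of microglia, 0 of 10 of meningeal fibroblasts and 0 of 6 tested of blood. The summed markers of Purkinje cells ran from 7535.4 to 8687.3 CPM on DR, below the ranges on KD (8786 to 9033.7 CPM) and on AL (8860.2 to 9475.5 CPM), and those of choroid plexus from 65.8 to 79.8 CPM on DR, below KD (79.9 to 100.02 CPM) and AL (83.7 to 93.8 CPM). Such sums weigh the most abundant genes most. The log2 fold changes of the 10 Purkinje markers for DR against AL ran from -0.295 to 0.066, with 9 of 10 below 0. Of the 6 choroid plexus markers tested, 3 were higher and 3 lower on KD than on DR. Among them, Enpp2 was at a mean of 46.8 CPM on DR and 65.7 CPM on KD, and Otx2 at 12.8 and 11.5 CPM. For the other 7 cell types the sums on DR and KD overlapped: those of astrocytes and Bergmann glia ran from 3950.7 to 4241.1 CPM on DR and from 4148.7 to 4359.2 CPM on KD, those of oligodendrocytes from 2234.8 to 2767.3 and from 2622.6 to 2842.3 CPM, and those of endothelium from 218 to 232 and from 227 to 242 CPM. The part of cell makeup in the differences of the targets was not tested. In bulk tissue, fewer cells of a type and less RNA per cell cannot be told apart. Ttr, the defining gene of the choroid plexus, was at 7.95, 0.37, 2.13 and 3.19 CPM in the KD mice and at most 0.82 CPM on DR, and Kcne2, Folr1, Aqp1 and Sostdc1 were at 0.222 CPM or less in every library. Without KD replicate 1, which had the most Ttr and the highest level of 8 targets among KD mice, the log2 fold change of Fkbp5 for KD against DR was -1.58. That mouse also had the highest Fkbp5 of the KD mice, so leaving it out could only widen the difference. Nothing is read from this value about choroid plexus.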

How the data were processed

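The deposited table holds counts of reads per gene without normalization. The authors removed adaptors with Trimmomatic 0.39, aligned reads with STAR 2.7.0f to GRCm38.p6 and counted them over GENCODE genes with featureCounts of Subread 1.6.4. The strand setting of the counting is not given in the sources used here, and the poly(A) library kit does not keep strand, so a gene and an overlapping antisense gene cannot be told apart. RNA samples of AL and DR were chosen for sequencing by RNA quality and came from separate mice; for KD the sources do not say more than the labels, and p-values measure the spread between these libraries.

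Symbols were taken from a GENCODE annotation (54723 of 54752 genes matched), coordinates and exon lengths from the deposited table, and promoters from RefSeq. For every comparison of 2 diets, only their 8 libraries entered the fit in edgeR 4.0.16 (R 4.3.3), with filterByExpr (minimum count 10, minimum total 15), TMM and glmQLFTest, Benjamini-Hochberg adjustment over all genes and a threshold of 0.05. Levels used TMM over the 12 libraries. log2 CPM had a prior count of 2. RPKM is CPM per kilobase of exon. Replicates of a diet differed by more than sampling noise (chi-square per gene 4.834 to 11.26), so none was a repeated sequencing of another library. This check cannot show whether libraries came from the same mouse.

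The members and gene lists were chosen with earlier results of these data known. Named are all members, every called gene of the pathway lists, all genes of the receptor and steroid lists, 5 genes most like Fkbp5 and 5 most like the mean of the targets (at least 1 CPM), 6 clock genes and Cirbp. Alternatives were DESeq2 1.42.0, library sizes without TMM, no filter, a filter at a mean of 10 CPM, all 12 libraries in 1 fit, edgeR's exact test and leaving out each mouse. The procedure was tested on simulated data before use, with changes set in genes with a mean above 100 counts. Of 100 genes changed by a log2 fold change of 0.5, 83 were recovered for KD against DR. For DR against AL and for KD against AL, 90 of 100 were recovered. All 100 genes changed by 1 were recovered in each comparison. Unchanged genes called numbered 20 for KD against DR, 16 for DR against AL and 11 for KD against AL. The calls of single markers of oligodendrocytes and Purkinje cells are not reported here.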

Additional observations from a re-analysis of the deposited data

Results flagged for a closer look

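Single mice that stood apart within a diet were sought with Dixon's test in 123 groups of 4 mice, covering the members and the pathway genes called in at least 1 comparison, and 7 were flagged, 2 of them among the 30 groups of the members; chance alone flags about 1 in 20. Arrdc2, an alpha-arrestin, was at 23.2 CPM in DR replicate 3, against 15.4 to 16.3 CPM in the other DR mice, and at 8.94 CPM in KD replicate 1, against 6.23 to 6.59 CPM in the other KD mice. These were also the DR mouse with the highest level of 9 of 9 targets and the KD mouse with the highest level of 8. KD replicate 1 was high for Errfi1 too, at 36.7 CPM against 32.5 to 32.9 CPM. Sult1a1 was at 20.6 CPM in AL replicate 1, against 17.8 to 18.3 CPM in the other AL mice. Hspa8 was at 2340 CPM in KD replicate 3, against 2110 to 2130 CPM. Ddit4 was at 68.1 CPM in DR replicate 1, against 84.7 to 86.7 CPM, the only flagged value that was the lowest of its diet. Fam107a was at 921 CPM in KD replicate 4, against 748 to 750 CPM, and KD replicate 4 was at the same time the lowest KD mouse for 7 of the 9 targets.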

How the results depend on the processing

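The alternatives were run for the members and for the pathway genes called in at least 1 comparison, not for clock genes, markers or pathway genes never called. No log2 fold change of theirs that was called changed direction: 1556 alternative values lay on the same side of the threshold or, for members, moved by less than 1 SD between mice, while 111 of the pathway genes' values lost and 36 gained a call. Values that were not called could change sign, as for Klf15, Tsc22d3, Mertk and Sdc4 between DR and AL and Cebpd between KD and AL. For KD against DR, 942 genes were called, against 1503 with no filter and 467 to 946 when 1 mouse was left out (467 without KD replicate 3, 520 without DR replicate 3, 526 without KD replicate 1, 601 without KD replicate 4); 9 or 10 members and 22 to 29 pathway genes were called in those fits. For DR against AL, 583 genes were called, against 1012 with DESeq2, 1258 with no filter, 983 with the exact test and 235 to 712 with 1 mouse left out (235 without DR replicate 3, 244 without AL replicate 4, 264 without AL replicate 1, 276 without AL replicate 2, 353 without DR replicate 1). In the same comparison 4 members and 15 pathway genes were called, against 8 and 24 with no filter, and 1 to 4 members and 3 to 15 pathway genes with 1 mouse left out. The count of members was 1 without AL replicate 1 or DR replicate 3 and 2 without DR replicate 1 or DR replicate 4, and that of pathway genes was 3 without AL replicate 4 or DR replicate 3 and 15 without AL replicate 3, and 6 to 9 without any of the others. For KD against AL, 0 genes were called, against 10 with DESeq2, 118 with no filter, 18 with the exact test and 0 to 6 with 1 mouse left out. The members called there were 0, against 2 with DESeq2, 9 with no filter, 5 with the exact test and 0 to 3 with 1 mouse left out, and the pathway genes 0, against 6 with no filter, 1 with the exact test and 0 to 1 with 1 mouse left out, where the 1 was Mertk without AL replicate 4 (log2 fold change -0.73, edgeR adjusted p = 0.0381). The cause of these shifts was not tested, other than that leaving out a mouse leaves 3 against 4. Map3k6 has no value for KD against AL with the filter at a mean of 10 CPM, since it lies below it. No paired analysis was possible because the labels give no numbers shared between diets. With 4 mice in each diet, whether a member was called between KD and AL depended on AL replicate 4 and on the tool and the filter.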
